A study of Ogataea parapolymorpha with 16 samples.

Results

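A set of 72 genes of the yeast Ogataea parapolymorpha, out of 5232 genes kept and 5408 in the files, was studied because its transcript levels rose in steps as growth slowed. The genes were chosen by their measured levels in all 16 samples. In both strains the level had to be higher in retentostat than in chemostat cultures at 0.025 per h, higher there than in chemostat cultures at 0.1 per h, and higher there than in batch. On the log2 scale, retentostat had to exceed the 0.1 per h chemostat by at least 1 and batch by at least 2. The last step, from the 0.025 per h chemostat to retentostat, had to stay under 1 in at least 1 strain. This leaves out genes with a large last step in both strains, but not in 1 strain. The last step reached 1 in IMD010 alone in 20 members and in CBS11895 alone in 5. The comparisons between cultures below are therefore a description of what was selected and carry no test. The difference between the strains was not itself part of the selection, which set the same limits in both strains, and it was tested. These tests use the same values as the selection. A low value in batch or at 0.1 per h that helped a gene to be chosen also enters the strain difference in that culture, so the tests are not independent of the selection.

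The study compared strain IMD010, a complex I mutant, with its wild-type parent CBS11895 in aerobic, glucose-grown bioreactors at 30°C and pH 5. IMD010 carries a single-nucleotide frameshift in NUBM, the gene of the subunit of respiratory complex I that holds the NADH-binding site, and is a single clone. Each strain was grown as a retentostat sampled at a late stage (specific growth rate about 0.001 per h), as glucose-limited chemostats at 0.025 and 0.1 per h, and as batch cultures with excess glucose (0.37 per h), with 2 independent cultures in each of the 8 groups. Glucose limitation thus separates the first 3 culture types from batch, and the step from batch to the 0.1 per h chemostat changes both the growth rate and the supply of glucose, which cannot be told apart. The retentostats also had more trace elements and vitamins in the medium, and ammonium hydroxide instead of potassium hydroxide for pH control. The chemostats at 0.025 per h that preceded them had the same conditions, but the labels do not name these as the sampled ones. Such changes cannot be told apart from growth rate either.

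In a chemostat the feed of the limiting nutrient sets the growth rate. A retentostat keeps the cells in the vessel while the feed goes on, so that growth slows towards zero as the energy supply is taken up by maintenance. Yeasts growing on excess glucose repress genes for the use of other carbon sources, such as those of the glyoxylate cycle, and many such genes are known to be relieved when glucose becomes limiting. Slow growth is known for higher transcript levels of stress-protection and storage genes and for lower levels of genes that make ribosomes.

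The values are FPKM (read fragments scaled by the authors to gene and library size), further scaled between samples by the median of ratios. Whole reads behind the values were recovered, and added up to 16522183 to 20898682 per sample. The divisor applied to each gene's reads did not follow the annotated length (Spearman's rho across genes −0.38), so that levels were compared between cultures and never between genes. The cultures of IMD010 at 0.1 per h lay further apart than any other pair, with an SD over genes of the log2 difference of 0.888, against 0.135 to 0.281 in the other 7 groups. In the batch cultures of CBS11895, genes of up to 600 bp had a median log2 deviation from their mean over all samples of −1.35 and −1.03, whereas the other 14 samples lay between −0.48 and 0.56. NUBM itself (HPODL_04625, chromosome II, 171646 to 173112 in the DL-1 assembly) is no check of the labels, since a frameshift leaves a transcript. It had 2928 and 2804 scaled FPKM in the retentostats of IMD010, against 2353 and 2207 in those of CBS11895, and 1432 and 1907 in batch cultures of IMD010, against 1897 and 2036 in those of CBS11895.

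Of the 5232 genes with a group mean of at least 10 scaled FPKM, 298 were in the order retentostat, 0.025 per h, 0.1 per h, batch in both strains. The requirement on the 0.1 per h chemostat left 125 of them and that on batch left 106. Of these, 34 gained at least 1 between the 0.025 per h chemostat and retentostat in both strains. They were left out, which gave the 72. All 72 are protein-coding genes. A total of 19 genes missed only the threshold on retentostat minus batch.

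Around that threshold of 2 the members and the genes left out differed little. Just inside, the smaller of both strains' log2 differences between retentostat and batch was 2.01 for HPODL_04234, 2.02 for HPODL_03011 and 2.02 for HPODL_04881, each in IMD010. Just outside, it was 2.00 for HPODL_05142 in IMD010, 1.98 for HPODL_01392 in IMD010 and 1.97 for HPODL_01337 in CBS11895.

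The median member was 3.82 higher in retentostat than in batch in IMD010 and 3.76 higher in CBS11895 on the log2 scale, as selected, with a range of 2.01 to 10.40 in IMD010 and of 2.03 to 10.91 in CBS11895. Over all 5232 genes the same median was −0.02 in IMD010 and 0.01 in CBS11895. The rise was at least 10-fold in 47 members in IMD010 and in 47 in CBS11895, and in 38 of them in both strains. It was at least 100-fold in both strains in 3 members, HPODL_02349, HPODL_04797 and HPODL_01670.

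**Figure D1:**
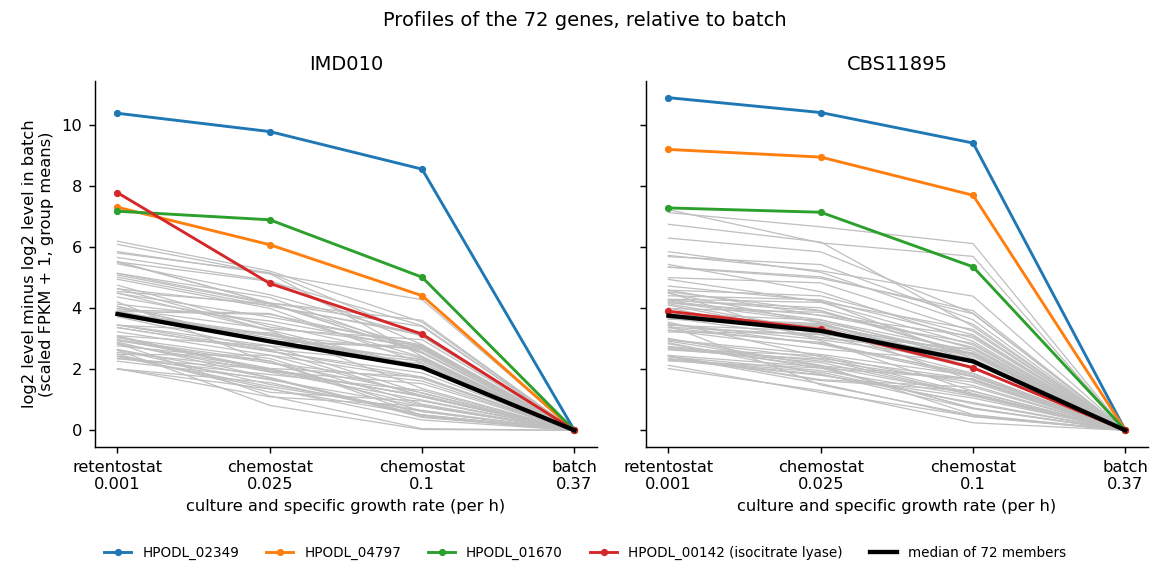
Log2 transcript level (scaled FPKM + 1, means of 2 cultures) of each of the 72 genes minus its level in batch, against culture type and specific growth rate per h, for IMD010 (left) and CBS11895 (right). Grey lines are single genes, coloured lines 4 named genes and the black line the median, which reaches 3.82 in retentostats of IMD010 and 3.76 in those of CBS11895; the isocitrate lyase gene rises further in IMD010 than in CBS11895.

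The rise was uneven along the series. Between the 0.025 per h chemostat and retentostat the median member gained 0.82 in IMD010 and 0.50 in CBS11895. Between the 0.1 and the 0.025 per h chemostats it gained 1.00 in IMD010 and 1.06 in CBS11895. Between batch and the 0.1 per h chemostat it gained 2.07 in IMD010 and 2.26 in CBS11895, a median share of the whole rise of 50.3% in IMD010 and 58.5% in CBS11895. This step out of glucose excess was the largest of the 3 in 48 members in IMD010, in 59 in CBS11895 and in 42 in both strains. The middle step was the largest in both strains in 4 members (HPODL_04683, HPODL_03290, HPODL_03458 and HPODL_03011), and the last step in 1, HPODL_04881. Taken by strain, the last step was the largest in 9 members in IMD010 and in 2 in CBS11895. HPODL_03458 was named after its values were seen.

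**Figure D2:**
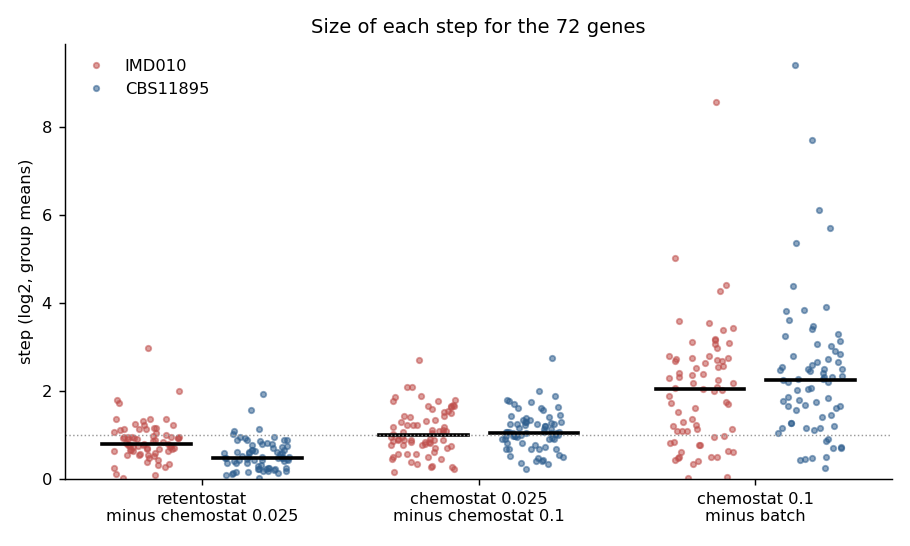
Size of each step (log2, difference of group means) for the 72 genes, from slow growth on the left to fast growth on the right, with IMD010 left of CBS11895 in each pair. Each point is a gene, black bars are medians and the dotted line marks a step of 1; the step between batch and the 0.1 per h chemostat has the highest medians, 2.07 in IMD010 and 2.26 in CBS11895.

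The strains differed mostly in one direction in the last step and by the largest amounts in the step out of batch. The last step was larger in IMD010 than in CBS11895 in 62 of the 72 members, with a median absolute difference of 0.37. The share of all genes with a larger last step in IMD010 was not computed, and the last step was part of the selection. Over all 5232 genes its median was −0.01 in IMD010 and −0.02 in CBS11895. The middle step was larger in IMD010 in 32, with 0.23, and the step out of batch in 30, with 0.79. The last step reached 1 in IMD010 alone in 20 members and in CBS11895 alone in 5, and stayed under 1 in both strains in 47. A step of at least 1 in both strains was barred by the selection. Whether the last step differed between the strains was not tested as a contrast of its own. The tests between strains within each culture are given below.

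Single cultures followed the same order in most members. In IMD010, all cultures of a type lay above all of the next faster type in 59 members, in CBS11895 in 65, and in both strains in 53, which is 53 of the 72 genes against 2.62% of all 5232 genes kept. Since the group means were selected for this order, the share describes the selection. Between retentostat and 0.025 per h the cultures overlapped in 2 members in IMD010 and in 6 in CBS11895. Between the chemostats they overlapped in 3 in IMD010 and in 1 in CBS11895. Between 0.1 per h and batch they overlapped in 8 in IMD010 and in 0 in CBS11895. The cultures of IMD010 at 0.1 per h were over 1 apart on the log2 scale in 12 members, and the level was higher in culture 2 in 44 of 72. Without culture 2, 61 of the 72 genes met the selection and no others did. Without culture 1, 79 genes met it, 71 of them members.

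HPODL_02349 (chromosome I, 878055 to 878591, 537 bp) had the largest rise and has no product name in the tables used here. It had 5426 and 5471 scaled FPKM in the retentostats of IMD010, 3501 and 3688 at 0.025 per h, 1337 and 1723 at 0.1 per h and 2.70 and 3.37 in batch. In CBS11895 the values were 7417 and 7517, 4460.5 and 6192, 2772 and 2554 and 2.32 and 3.44 in the same order. The gene was nearly silent with excess glucose, at 53 and 71 reads in the batch cultures of IMD010 and 35 and 52 in those of CBS11895, and high in every glucose-limited culture. Retentostat exceeded batch 1795-fold in IMD010 and 2594-fold in CBS11895, but it exceeded the 0.1 per h chemostat only 3.56-fold in IMD010 and 2.80-fold in CBS11895.

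HPODL_04797 (chromosome II, 478518 to 478892), a gene of only 375 bp without a product name here, had 14418 and 15237 scaled FPKM in the retentostats of IMD010, 5733 and 6914 at 0.025 per h, 1462 and 2506 at 0.1 per h and 69.1 and 115 in batch. In CBS11895 it had 19099.8 and 19588, 12529.9 and 19997, 7095 and 6560.2 and 29.1 and 34.1. IMD010 climbed in wide steps, while CBS11895 was already near its highest level at 0.025 per h, where 1 culture lay above both retentostats. HPODL_01670 (chromosome VI, 943424 to 943858), a hypothetical protein, had 2907 and 2809 scaled FPKM in the retentostats of IMD010, 2285 and 2419 at 0.025 per h, 533 and 742 at 0.1 per h and 16.5 and 20.7 in batch, against 2430.5 and 2533, 2178 and 2323, 664 and 636 and 12.8 and 16.9 in CBS11895. Both strains thus had nearly the same profile, 153-fold higher in retentostat than in batch in IMD010 and 167-fold in CBS11895.

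HPODL_04459 (chromosome V, 1214646 to 1215085) had its widest distance between the 2 chemostats in IMD010. It had 1326 and 1406 scaled FPKM in the retentostats of IMD010, 678.4 and 729.9 at 0.025 per h, 105 and 108 at 0.1 per h and 18.9 and 19.0 in batch, against 1986 and 2134, 1267 and 1484, 198 and 205 and 16.7 and 19.4 in CBS11895. The middle step of 2.71 in IMD010 and 2.76 in CBS11895 was the largest of any member in each strain. In the glucose-limited cultures the values of IMD010 lay below all those of CBS11895, and in batch they overlapped.

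The other 4 of the 8 members with the largest rise were HPODL_04570, HPODL_03327, HPODL_02632 and HPODL_03828. HPODL_04570 (chromosome II, 81504 to 82229) had 187 and 171 scaled FPKM in the retentostats of IMD010, 84.3 and 97.0 at 0.025 per h, 26.1 and 29.1 at 0.1 per h and 1.30 and 1.59 in batch, against 137 and 145, 60.8 and 115, 28.4 and 24.1 and 0.963 and 1.92 in CBS11895. Its strains overlapped in both chemostats and in batch. HPODL_03327 (chromosome IV, 540848 to 541174) had 314 and 362, 209 and 224, 44.7 and 55.2 and 5.89 and 4.15 in IMD010, against 335 and 301, 199.9 and 264, 50.2 and 63.2 and 2.81 and 3.25 in CBS11895. In batch it was higher in IMD010 (log2 0.57, FDR = 0.0206 in limma), but at 327 bp it was lower there after removal of a trend on gene length (log2 −1.07, FDR = 0.000848). HPODL_02632 (chromosome VII, 439721 to 440857) had 67478 and 59983 scaled FPKM in the retentostats of IMD010, 36901 and 40134 at 0.025 per h, 17139 and 25673 at 0.1 per h and 1009 and 1184 in batch, against 55244 and 54405, 39281 and 40047, 27318 and 26868 and 357 and 418 in CBS11895. In batch it was higher in IMD010 (log2 1.50, FDR = 7.1e-05), and by 1.46 after removal of the trend. HPODL_03828 (chromosome V, 93759 to 94298, a hypothetical protein) had 1127 and 1131, 622 and 826, 115 and 414 and 22.8 and 24.3 in IMD010, against 561 and 565, 166 and 362, 202 and 186 and 2.11 and 3.36 in CBS11895. Its cultures overlapped between 0.025 and 0.1 per h in CBS11895, and its 2 cultures of IMD010 at 0.1 per h were far apart.

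**Figure D3:**
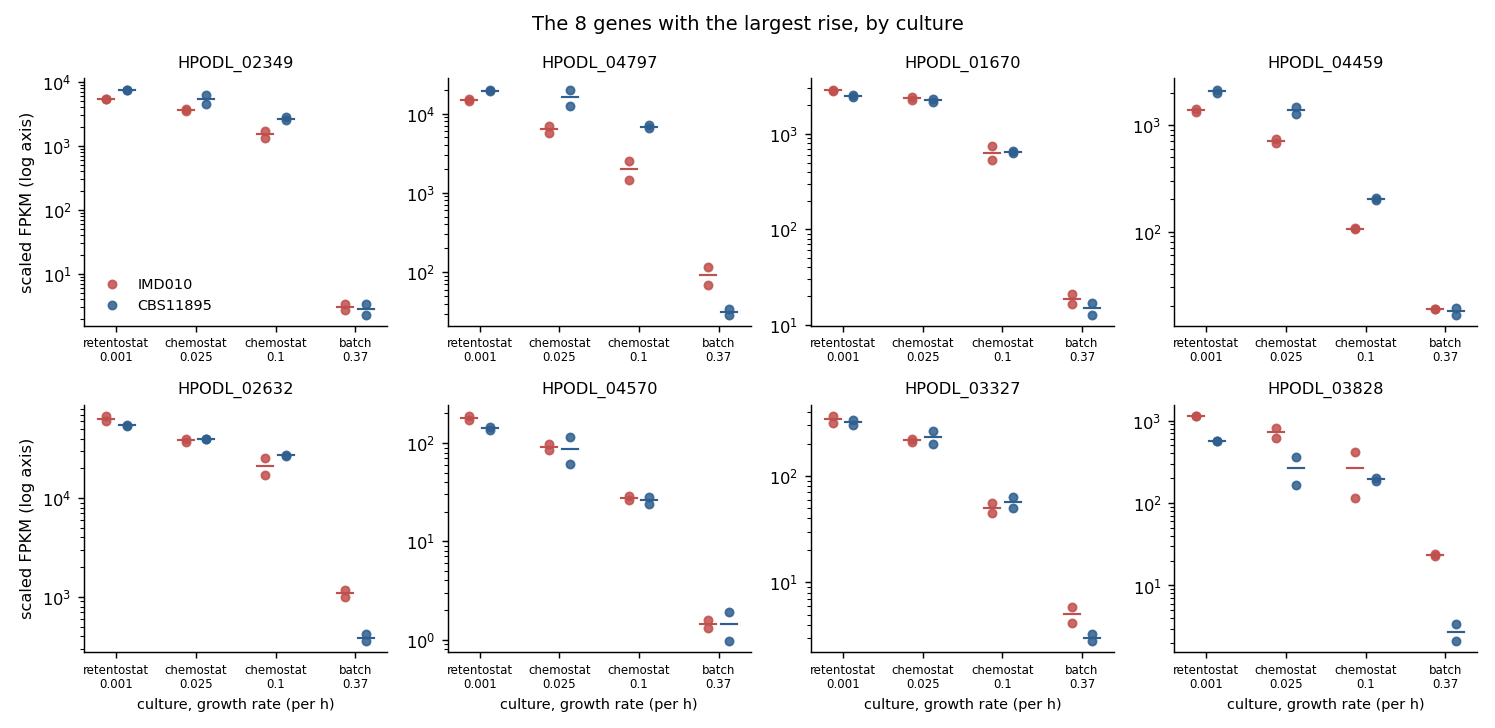
Scaled FPKM (log axis) of the 8 members with the largest rise in every culture, by culture type and specific growth rate per h, IMD010 (red) left of CBS11895 (blue). Points are single cultures and bars the mean of 2; all 8 genes lie lowest in batch in both strains, and HPODL_02349 has at least 1337 in every glucose-limited culture.

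Product names were at hand for 2110 of the genes kept, and for 28 of the 72 members. Of these 28, 22 (78.6%) were hypothetical proteins, against 660 (31.3%) of the 2110. The share describes the genes with a name in the tables used here, and the other 44 members were not annotated. The 6 members with another name were a putative secreted protein, an aromatic-ring hydroxylase, a protein of the yippee family, a pantothenate transporter, a phospholipid-translocating ATPase and isocitrate lyase.

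The aromatic-ring hydroxylase (HPODL_00908, chromosome IV, 30077 to 31279), named as one of the enzymes that add a hydroxyl group to ring compounds, had 647 and 543.5 scaled FPKM in the retentostats of IMD010, 293 and 295 at 0.025 per h, 92.8 and 136 at 0.1 per h and 9.82 and 15.2 in batch. In CBS11895 it had 568 and 549, 322 and 278, 91.0 and 102 and 10.2 and 13.6. The values of both strains overlapped in all 4 culture types. The yippee protein (HPODL_00391, chromosome III, 399274 to 399768), of a conserved family of small zinc-binding proteins first described in the fruit fly, had 305 and 309 in the retentostats of IMD010, 170.2 and 183 at 0.025 per h, 44.0 and 57.0 at 0.1 per h and 8.01 and 7.34 in batch, against 245 and 251, 195 and 218, 61.1 and 55.1 and 3.76 and 3.82 in CBS11895. It was named after its values were seen, as was the ATPase.

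HPODL_01033 (chromosome IV, 257409 to 258908) is named after liz1, the pantothenate (vitamin B5) uptake protein of fission yeast. It had 115 and 94.4 scaled FPKM in the retentostats of IMD010, 46.5 and 60.5 at 0.025 per h, 36.0 and 20.8 at 0.1 per h and 2.19 and 2.29 in batch, against 198 and 203, 59.4 and 73.6, 19.8 and 21.1 and 11.0 and 4.62 in CBS11895. The last step was 0.95 in IMD010 and 1.58 in CBS11895, so that the gene is 1 of the 5 members with a last step of at least 1 in CBS11895 alone. It was also the only member with fewer than 10 reads in a culture, the lowest count being 8 in batch.

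The putative secreted protein (HPODL_01405, chromosome VI, 520753 to 522648) had 8138 and 7626 scaled FPKM in the retentostats of IMD010, 3996 and 4136 at 0.025 per h, 803 and 1533 at 0.1 per h and 249.9 and 257 in batch, against 7514 and 7371, 6139 and 7071, 2194 and 2206 and 219 and 242 in CBS11895. In CBS11895 it was nearly as high at 0.025 per h as in retentostat. The phospholipid-translocating ATPase (HPODL_01433, chromosome VI, 563907 to 568751), a pump of the kind that moves lipids from one leaflet of a membrane to the other, had 491 and 507 in the retentostats of IMD010, 241 and 261 at 0.025 per h, 112 and 180 at 0.1 per h and 95.4 and 88.9 in batch, against 593 and 569.5, 329 and 333, 258 and 264 and 104 and 109 in CBS11895. At 4845 bp it was the longest member, and its rise of 5.41-fold in IMD010 and 5.47-fold in CBS11895 was among the smaller ones.

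Isocitrate lyase (HPODL_00142, chromosome I, 278445 to 280091) splits isocitrate into glyoxylate and succinate and opens the glyoxylate cycle, by which yeasts build sugar from small compounds such as acetate. Its gene had 3330.3 and 4150.5 scaled FPKM in the retentostats of IMD010, 494 and 455 at 0.025 per h, 165 and 133 at 0.1 per h and 16.6 and 15.1 in batch. In CBS11895 it had 751 and 855, 602 and 462, 224 and 219 and 25.8 and 79.4. Both strains were alike in the chemostats at 0.025 per h, while the retentostats of IMD010 lay far above those of CBS11895 and the batch cultures of IMD010 below. Retentostat exceeded batch 236-fold in IMD010 and 15.3-fold in CBS11895. The last step, 2.98 in IMD010 against 0.59 in CBS11895, was the largest of any member in IMD010.

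Isocitrate lyase was the only member on 18 lists of gene groups formed by product names, which held 230 genes together. On the list of fatty acid beta-oxidation, the glyoxylate cycle and the carnitine shuttle, 7 of 9 genes were higher in retentostat than in batch in both strains and 1 was lower, at an FDR under 0.05 in limma, where 22.0% of all genes kept were higher and 24.6% lower in both strains. Isocitrate lyase is 1 of the 7 and was selected for this difference, so that its own call carries no test. The list's median difference was 1.78 in IMD010 and 1.86 in CBS11895, against −0.02 and 0.02 over all genes. The genes of this list named here other than isocitrate lyase were chosen after their values were seen.

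Malate synthase (HPODL_01838), the enzyme that follows isocitrate lyase in the glyoxylate cycle, was in the same order as the members in both strains. It had 3525 and 3925 scaled FPKM in the retentostats of IMD010, 1170.3 and 1117 at 0.025 per h, 1013 and 750.3 at 0.1 per h and 178 and 188 in batch, against 1668 and 1633, 1332 and 1149, 861 and 812 and 294 and 339 in CBS11895. It missed the selection because retentostat exceeded the 0.1 per h chemostat by 0.98 in CBS11895, just under the required 1, against 2.08 in IMD010. As with isocitrate lyase, retentostats of IMD010 were higher than those of CBS11895 (log2 1.17, standard error 0.15, FDR = 0.00189) and batch cultures lower (log2 −0.78, standard error 0.15, FDR = 0.00103).

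The carnitine acetyltransferase HPODL_01480, named as an outer mitochondrial enzyme, was higher in retentostat too. Its group means were in the order of the members in CBS11895, with a middle step of only 0.06. In IMD010 they were not (middle step −0.14), and there the cultures at 0.1 per h were far apart. It had 8177 and 8542 scaled FPKM in the retentostats of IMD010, 1832 and 1953 at 0.025 per h, 2698 and 1486 at 0.1 per h and 171 and 201 in batch, against 3915 and 3856, 1504 and 1915, 1734 and 1555 and 523 and 421 in CBS11895. Acyl-coenzyme A oxidase (HPODL_01143), the first enzyme of peroxisomal beta-oxidation, ran the other way among the glucose-limited cultures, with 1206 and 1543 in the retentostats of IMD010, 2480.1 and 2679 at 0.025 per h, 3554 and 3053 at 0.1 per h and 377 and 592 in batch, against 2091 and 1910.4, 2000.1 and 2412, 2664 and 2662 and 671 and 584 in CBS11895. Low levels in batch were thus shared by these 4 genes, and a graded rise within glucose limitation was not.

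**Figure D4:**
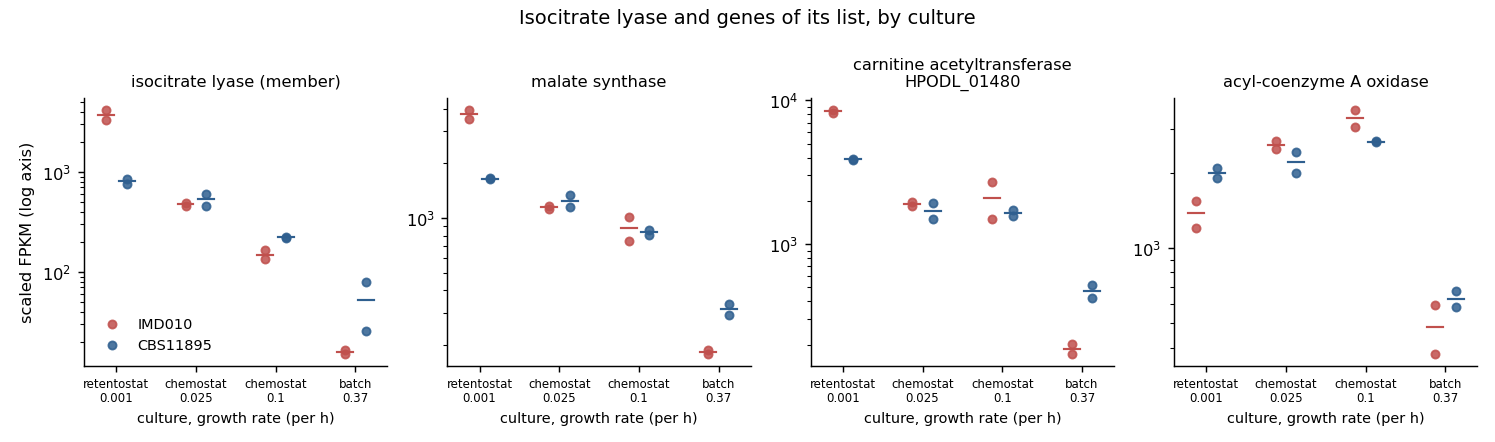
Scaled FPKM (log axis) of isocitrate lyase and 3 genes of the same list in every culture, by culture type and specific growth rate per h, IMD010 (red) left of CBS11895 (blue), with bars for the mean of 2 cultures. Isocitrate lyase reaches 3740.4 in retentostats of IMD010, against 803 in those of CBS11895, and acyl-coenzyme A oxidase is lower in retentostat than at 0.1 per h in both strains.

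No member was on the lists of autophagy, peroxins, trehalose and glycogen, chaperones, antioxidant enzymes, proteases, proteasome, ubiquitin enzymes, sugar and nitrogen transporters, kinases, transcription factors, the tricarboxylic acid cycle, complex I, ribosomal proteins, methanol metabolism or meiosis. Over the 18 lists, 69 of 230 genes were higher in retentostat than in batch in both strains, the selected isocitrate lyase among them, and 44 lower. Autophagy had 3 higher and 0 lower of 6, proteases and peptidases 5 and 1 of 8, antioxidant enzymes 4 and 1 of 8, and sugar transporters 7 and 3 of 14. Transporters of nitrogen compounds had 5 higher and 12 lower of 29, and cytosolic ribosomal proteins 1 and 7 of 42. For the ribosomal proteins this count hides opposite directions in the strains. In IMD010 1 of the 42 was higher in retentostat and 22 were lower (31.1% and 31.8% of all genes), with a median difference of −0.70. In CBS11895 30 were higher and 7 lower (39.6% and 38.6% of all genes), with a median of 1.72. These are short genes (median 523 bp), and after removal of the trend on gene length the medians were −0.74 in IMD010 and 0.57 in CBS11895. Peroxins had 3 higher and 1 lower of 9, chaperones 3 and 2 of 9, the proteasome 1 and 0 of 9, ubiquitin enzymes 6 and 3 of 16, protein kinases 9 and 5 of 26 and transcription factors 7 and 4 of 22. The tricarboxylic acid cycle had 1 higher and 2 lower of 8, complex I 3 and 0 of 4, trehalose and glycogen 1 and 1 of 3, meiosis and mating 2 and 1 of 7, and methanol metabolism 1 and 0 of 1. The medians of the strains differed in sign for 3 more lists. They were 0.80 in IMD010 and −0.35 in CBS11895 for chaperones (0.78 and 0.02 after removal of the trend), 0.30 and −0.68 for the tricarboxylic acid cycle and −0.06 and 0.17 for meiosis and mating. Since many members have no name, the lists cannot show how many of the 72 belong to these groups.

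The members were somewhat short and lay on all 7 chromosomes. Their median length was 897 bp, against 1209 bp for the genes kept, and 16 of 72 (22.2%) were no longer than 600 bp, against 14.7% of the genes kept. Low values of short genes in batch cultures of CBS11895 enter the selection, and after a smooth trend on gene length had been removed from each sample 75 genes met it, 63 of them members. The 9 members that no longer met it had a median length of 655 bp. Chromosome IV held 16 members (22.2%, against 14.4% of the genes kept), chromosome VI held 13, chromosome VII 11, chromosome V 10, chromosomes II and III 8 each and chromosome I 6.

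Members without a gene between them formed 3 pairs. HPODL_04528 and HPODL_04529 (chromosome II, 10327 to 11406 and 11832 to 12911) are both 1080 bp long and 425 bp apart. HPODL_04528 had 41659.5 and 34858 scaled FPKM in the retentostats of IMD010, 14761 and 14828 at 0.025 per h, 4667 and 4854 at 0.1 per h and 827 and 817 in batch, against 22140.2 and 22249, 11096 and 11498, 3848 and 4398 and 911 and 1054 in CBS11895. HPODL_04529 had 5239.7 and 5057, 1938 and 2134, 1579 and 1165 and 103 and 120.5 in IMD010, against 4971 and 5220.5, 2681 and 3032, 1551 and 1495 and 199 and 220.4 in CBS11895. Both were graded, but only HPODL_04528 had separate strains in retentostat. Whether the genes are near-identical copies that share reads was not tested.

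The aromatic-ring hydroxylase HPODL_00908 lies 6 bp from the hypothetical gene HPODL_00909 (chromosome IV, 31286 to 32629), so that reads at the border could count for either gene. HPODL_00909 had 356 and 303 scaled FPKM in the retentostats of IMD010, 151 and 148 at 0.025 per h, 131 and 95.4 at 0.1 per h and 37.6 and 39.4 in batch, against 279.6 and 273, 145 and 151, 92.0 and 79.7 and 61.2 and 63.2 in CBS11895. Its rise of 8.55-fold in IMD010 and 4.44-fold in CBS11895 was smaller than that of its neighbour, 47.6-fold in IMD010 and 47.0-fold in CBS11895. HPODL_03010 and HPODL_03011 (chromosome VII, 1100914 to 1101708 and 1102043 to 1102513) were 334 bp apart. HPODL_03010 had 45.6 and 45.4 in the retentostats of IMD010, 19.6 and 20.6 at 0.025 per h, 7.87 and 14.1 at 0.1 per h and 4.69 and 4.19 in batch, against 35.3 and 39.9, 25.6 and 30.3, 15.1 and 18.8 and 0.644 and 1.58 in CBS11895. HPODL_03011 had 216 and 251, 152 and 189.7, 101 and 61.2 and 51.2 and 62.7 in IMD010, against 355 and 497, 217 and 275, 74.5 and 83.8 and 62.5 and 47.7 in CBS11895, and 1 culture of IMD010 at 0.1 per h lay below 1 of the batch cultures.

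The strains were compared within each culture with limma in a single fit of all 16 samples, with p-values adjusted over the 5232 genes (FDR). In retentostats, 4 members were higher in IMD010 and 2 were lower at an FDR under 0.05, against 1.85% of all genes higher and 2.08% lower. The median difference of the 72 was 0.18 on the log2 scale, against 0.00 over all genes, and 49 of the 72 lay above 0. Isocitrate lyase had 3740.4 ± 580 scaled FPKM in IMD010, against 803 ± 73.2 in CBS11895 (mean ± SD, n = 2; log2 2.21, standard error 0.38, FDR = 0.00947). HPODL_04528 (log2 0.78, standard error 0.12, FDR = 0.00636), HPODL_04683 (log2 0.75, standard error 0.13, FDR = 0.00963) and HPODL_01113 (log2 0.58, standard error 0.10, FDR = 0.0121) were higher in IMD010 by smaller amounts, HPODL_01113 being named after its values were seen.

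HPODL_04683 (chromosome II, 275366 to 276298) had 398 and 404 scaled FPKM in the retentostats of IMD010, against 235 and 242 in those of CBS11895, while the strains overlapped at 0.025 per h (168 and 173 in IMD010, against 164 and 176 in CBS11895). HPODL_04881 (chromosome II, 627311 to 628915) was lower, with 25.8 and 32.1 in the retentostats of IMD010, against 50.4 and 78.3 in those of CBS11895 (log2 −1.10, standard error 0.20, FDR = 0.0116), and HPODL_04459 was lower as well (log2 −0.59, standard error 0.12, FDR = 0.0194). These 6 calls rested on both cultures of each strain. Without IMD010 retentostat culture 1 none of the 6 was called and without culture 2 there were 2, and without CBS11895 retentostat culture 1 there was 1 and without culture 2 none. In a fit of only the 4 retentostats 38 members were called, and the share of all genes called in that fit was not computed.

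In chemostats at 0.025 per h, 3 members were lower in IMD010 and 0 were higher, against 0.593% of all genes lower and 1.03% higher. At an unadjusted p-value under 0.05, 14 were lower and 2 higher, and with voom weights 4 were lower and 0 higher at an FDR under 0.05. The 3 were HPODL_04459, HPODL_01096 and HPODL_03290. HPODL_04459 had 704 ± 36.4 scaled FPKM in IMD010, against 1376 ± 153 in CBS11895 (log2 −0.96, standard error 0.12, FDR = 0.00205). HPODL_01096 (chromosome VI, 5685 to 7019), a hypothetical protein, had 309.6 ± 12.3 in IMD010, against 590.5 ± 57.6 in CBS11895 (log2 −0.93, standard error 0.13, FDR = 0.00437). HPODL_03290 (chromosome IV, 476570 to 478165) had 5274 ± 110.3 in IMD010, against 8019.9 ± 217 in CBS11895 (log2 −0.60, standard error 0.10, FDR = 0.0159). The number called changed with the culture left out, and the share of all genes called in those fits was not computed.

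In chemostats at 0.1 per h, 8 members were lower in IMD010 and 0 were higher, against 1.11% of all genes lower and 2.24% higher. At an unadjusted p-value under 0.05, 22 were lower and 9 higher, and with voom weights 8 were lower and 1 higher at an FDR under 0.05. The median difference of the 72 was −0.17, against 0.02 over all genes. HPODL_04797 had 1984 ± 739 scaled FPKM in IMD010, against 6828 ± 378 in CBS11895 (log2 −1.83, standard error 0.29, FDR = 0.00946), the widest distance of the 8. The secreted protein HPODL_01405 had 1168 ± 516 in IMD010, against 2200.1 ± 8.61 in CBS11895 (log2 −0.99, standard error 0.23, FDR = 0.042), and HPODL_00880 (chromosome III, 1256427 to 1257854), a hypothetical protein, 109 ± 20.7, against 206 ± 28.7 (log2 −0.92, standard error 0.19, FDR = 0.0251).

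The other 5 were HPODL_02349, HPODL_04459, HPODL_01096, HPODL_03290 and the phospholipid-translocating ATPase HPODL_01433, with log2 differences between −0.44 and −0.92. HPODL_04459 was the only member called lower in IMD010 at an FDR under 0.05 in all 3 glucose-limited culture types. Others, such as HPODL_02349 and HPODL_04797, were lower in all 3 without a call in each. The IMD010 cultures at 0.1 per h were the pair with the widest spread, and in a fit of the 4 cultures alone 0 of the 72 were called. The number called changed widely with the culture left out, and the share of all genes called in those fits was not computed.

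In batch cultures, 23 members were higher in IMD010 and 21 lower, against 31.3% of all genes higher and 41.6% lower. The split depended on the processing, and the share of all genes called without further scaling was not computed. With the deposited values without further scaling 37 were higher and 16 lower, and after removal of the trend on gene length 18 were higher and 34 lower. The median over all genes moved with the setting too, from −0.17 to 0.13 without further scaling and to −0.21 after removal. That of the members went from 0.11 to 0.41 and to −0.31. Of the 16 members of up to 600 bp, 6 were higher in IMD010 and 1 lower, and after removal of the trend 1 was higher and 11 lower. Of all 767 genes of this length, 494 were higher and 131 lower, and after removal 306 and 335. Of the 27 members over 1200 bp, 5 were higher and 12 lower, and after removal 8 and 10. Of all 2641 genes of this length, 446 were higher and 1440 lower, and after removal 675 and 1075.

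Among the members called with separate strains in batch, HPODL_03828 was furthest above CBS11895. It had 22.8 and 24.3 scaled FPKM in batch cultures of IMD010, against 2.11 and 3.36 in those of CBS11895 (log2 2.73, standard error 0.49, FDR = 0.000639). The gene is 540 bp long, and its difference was 1.79 after removal of the trend on gene length (FDR = 0.00314 in limma). HPODL_01939 (chromosome VI, 1418525 to 1419127), a hypothetical protein, had 26.5 and 24.9 in IMD010, against 4.34 and 5.16 in CBS11895 (log2 2.22, standard error 0.29, FDR = 0.000111), and HPODL_04734 (chromosome II, 372215 to 372967) had 145 and 143, against 32.5 and 41.7 (log2 1.94, standard error 0.37, FDR = 0.00103). The members furthest below were isocitrate lyase (log2 −1.46, standard error 0.38, FDR = 0.00507), HPODL_00880 (log2 −1.38, standard error 0.19, FDR = 0.000137) and the pantothenate transporter HPODL_01033 (log2 −1.34, standard error 0.32, FDR = 0.0035). For isocitrate lyase the batch cultures of CBS11895 were far apart, and both lay above those of IMD010.

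**Figure D5:**
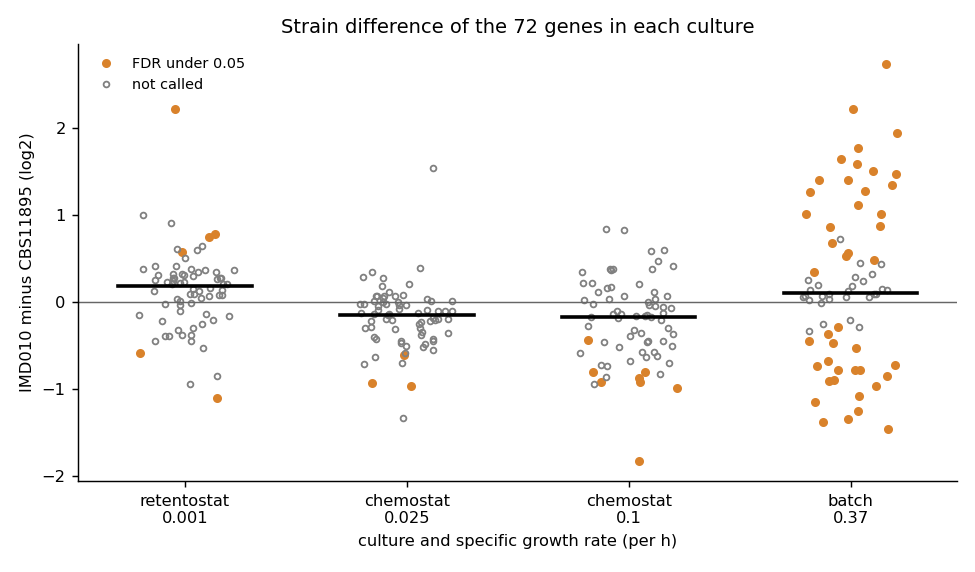
Difference IMD010 minus CBS11895 (log2, limma) of each of the 72 genes in the 4 culture types, ordered by specific growth rate per h. Filled points have an FDR under 0.05, open points do not and black bars are medians. A total of 6, 3 and 8 genes are called in retentostat, at 0.025 per h and at 0.1 per h, and 44 in batch. Of all genes kept, 31.3% were called higher in IMD010 in batch and 41.6% lower.

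A member's whole rise from batch to retentostat differed between the strains in 34 of 72 at an FDR under 0.05. The rise was larger in IMD010 in 18 and smaller in 16, against 28.1% and 23.7% of all genes kept. Without further scaling the split was 7 larger and 26 smaller, and after removal of the trend on gene length 27 larger and 5 smaller. The shares of all genes called under these settings were not computed. The median over all genes moved with the setting too, from 0.11 to −0.30 without further scaling and to 0.15 after removal. That of the members went from −0.04 to −0.45 and to 0.38. Of the 18 with a larger rise, 14 were lower in batch cultures of IMD010, and of the 16 with a smaller rise, 13 were higher there. The strain difference in batch is part of the difference in rise, so that such counts are largely fixed in advance. The shares of all genes were not computed. Without IMD010 retentostat culture 1 or IMD010 batch culture 1, 21 members each were called, without CBS11895 batch culture 1 also 21, and without CBS11895 retentostat culture 1 22.

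Isocitrate lyase had the widest distance, with a rise larger in IMD010 by 3.67 (log2 3.67, standard error 0.53, FDR = 0.000812). It was smaller in IMD010 for HPODL_01939 (log2 −1.90, standard error 0.41, FDR = 0.00436), HPODL_04797 (log2 −1.85, standard error 0.42, FDR = 0.00547) and HPODL_04734 (log2 −1.64, standard error 0.53, FDR = 0.0251). For HPODL_04797 the difference was −0.38 after removal of the trend on gene length (FDR = 0.34), and for HPODL_04734 it was −1.14 (FDR = 0.0665), so that both calls ended. HPODL_04734 had 96.7 and 309 scaled FPKM at 0.1 per h in IMD010, against 331 and 336 in CBS11895. At 603 bp HPODL_01939 had 293 and 289 in the retentostats of IMD010, against 234 and 232 in those of CBS11895, so that its strains lay close in retentostat and apart in batch. In 21 of the 72 members no strain difference was called in any culture type, in 38 it was called in batch only and in 13 in at least 1 glucose-limited type. The shares of all genes in these classes were not computed, so that the counts have no background. In the batch test 31.3% of all genes kept were higher in IMD010 and 41.6% lower.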

How the data were processed

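The authors used STAR 2.5.3a and the DL-1 assembly of CBS11895 for alignment, removed reads with several possible positions, counted them with HTSeq and deposited FPKM values, 1 file per sample, without a filter on low values. SAMtools and edgeR are also listed in the submitters' processing notes. FPKM values were divided by median-of-ratios factors (genes above 0 in all 16 samples), and 5232 genes with a group mean of at least 10 were kept. Values were tested as log2 (scaled FPKM + 1) with limma 3.58.1 in R 4.3.3, with 8 groups in 1 fit and Benjamini-Hochberg adjustment (FDR under 0.05). The selection and the steps used log2 of the group mean (+ 1), which differs slightly from the mean of logs that limma compares. A log2 difference on these scales understates the change of low genes, and values given as x-fold are ratios of group means without the added 1. No count test was used, since the deposited values are FPKM. Whole reads (tolerance 0.01) were recovered for 100% of values above 0 and served for depth, TMM factors and voom weights. Scripts were tested on simulated data. With 2 cultures per group, p-values measure the spread between these cultures, shared over all groups.

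Product names came from the study's gene table, whose names were at hand for 2110 genes, and gene positions from RefSeq (assembly of DL-1). The members, lists and tests were chosen with earlier results of these data known. Named were the 8 members with the largest rise (the smaller of both strains), up to 4 members per list, up to 3 per direction and culture among those called with separate strains, up to 4 called for a different rise, 3 genes on either side of the threshold of 2, neighbouring members and NUBM. Alternatives were TMM factors, no further scaling, no filter or a minimum of 50, a pseudocount of 0.1, removal of a trend on gene length (local regression, span 0.3), the replicate number as a block, omission of each culture, a fit of 4 samples, stricter thresholds and voom weights.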

Additional observations from a re-analysis of the deposited data

Results flagged for a closer look

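The rise from batch to retentostat differed between the strains (interaction in limma, FDR under 0.05) for these named members. For isocitrate lyase (HPODL_00142) the rise was larger in IMD010 by 3.67 on the log2 scale. For HPODL_01939 the difference between IMD010 and CBS11895 was −1.90, for HPODL_04797 it was −1.85 and for HPODL_04734 it was −1.64, each a smaller rise in IMD010. For HPODL_04797 and HPODL_04734 the calls ended when the trend on gene length was removed, with differences of −0.38 (FDR = 0.34) and −1.14 (FDR = 0.0665). The part of gene length in these differences was not otherwise tested.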

How the results depend on the processing

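The number of genes that met the selection was 72 and ran between 55 (without further scaling, 49 of them members) and 75 (length trend removed) under the other processing choices, and between 61 and 79 when 1 culture was left out. The 6, 3, 8 and 44 members called between strains in retentostat, at 0.025 per h, at 0.1 per h and in batch became 38, 10, 0 and 50 in fits of only the 4 samples compared, and 0, 0, 0 and 2 at an FDR under 0.001 and a log2 difference of more than 2 in either direction. With 1 culture left out, they ran from 0 to 30 in retentostat, 1 to 21 at 0.025 per h, 0 to 45 at 0.1 per h and 35 to 54 in batch. The 34 members with a different rise ran from 21 to 43, the listed genes higher in both strains from 62 to 83 and those lower from 40 to 50. TMM factors, no filter, a pseudocount of 0.1 and voom weights kept each of these counts within 1.5 times. The share of all genes called was not computed for fits of only the 4 samples or with 1 culture left out.

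Cultures with the same replicate number deviated together in some pairs of groups and in opposite directions in others. The correlation of their deviations was over 0.1 in 6 of 28 pairs of groups (range −0.32 to 0.41). Between the strains within a culture type it ran from −0.03 to 0.29. With the replicate block, 6, 4, 7 and 44 members were called between strains and 32 for a different rise, and with the block and the length trend removed 5, 4, 8 and 52, and 33. Of 521 repeats of the 21 named strain contrasts, 462 kept direction and call, 59 lost the call and 0 reversed. In many of these repeats the difference could not move. Omission of a culture of a group not compared, the replicate block or a fit of only the 4 samples leaves it unchanged. The absence of reversals therefore says little for such repeats. Outside the named contrasts, the batch difference of HPODL_03327 (0.57) became −1.07 with the length trend removed. Without further scaling the median of all genes moved by over 0.1 in some contrasts, to 0.13 in batch (−0.17 as reported) and −0.30 for the different rise (0.11 as reported). With 2 cultures per group, the number of cultures and not the number of reads limits the precision.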
